A study of Mus musculus with 31 samples.

Results

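Medulloblastoma lines were compared with the tumours they were grown from. The labels give 8 arrays of lines called cancer stem cells (CSCs) and 8 arrays of matched tumour tissue, and each line shares a tumour identifier (74, 91, 92, 9, 49, 68, 77 or 83) with its tissue. These are 16 of the 31 arrays of the series. All 16 are Ptch het p53 wt on the C57BL/6 strain, so every line and every tissue carries the same genotype. The labels give no age for these mice. The lines were grown as neurospheres, free-floating cell clusters, in medium with EGF and FGF2, and were collected 3 to 5 days after plating, whereas the tissue is the tumour itself. Each line is the culture of 1 tumour. The other arrays are used here only as reference levels: 9 neural stem cell (NSC) neurosphere cultures of C57BL/6 mice at postnatal day 7, with 3 each from the subventricular zone, the IV ventricle region and the cerebellar white matter, and CSCs of 2 Ptch het p53 het tumours (27 and B), whose 3 technical replicates were averaged.

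Ptch1 is the receptor that holds back Hedgehog signalling. When it is lost, Smo becomes active and the Gli transcription factors switch on a program that includes Gli1, Ptch1 itself and Mycn, which in the young cerebellum keeps granule neuron progenitors dividing. Medulloblastomas of Ptch heterozygous mice are known to resemble such progenitors, and a tumour also holds neurons, glia, vessels and immune cells that a neurosphere culture may lack.

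Values are RMA log2 intensities, so a difference of 1 is a doubling. Levels are given as the lowest, median and highest of the 8 lines and of the 8 tissues. Differences are line minus tissue, with a standard error (SE) from the paired limma fit. That fit draws each gene's variance toward a value common to all genes. A gene was called when its Benjamini-Hochberg adjusted p from limma, over all 18194 genes and with the tumour as a block, was under 0.05. A level compares arrays for 1 gene and not 1 gene with another, since probe sets differ in brightness. As a guide to genes that are not expressed, 3 Y-linked genes read 0.72 to 1.57 on the 12 of these 16 arrays that carry no Y signal. Where a gene lay at or below 1.57 in a group, its difference is also given as a lower bound. Each gene is shown by its brightest probe set. For 56 of the 228 genes named here the mean over all probe sets of the gene differed by more than 1.5-fold, and for 51 of these it was smaller, so those means are given beside the results. For tumours 77 and 83, each line deviated with the tissue of the other tumour and not with its own, so their pairing is uncertain. In bulk samples fewer cells of a type and less RNA per cell cannot be told apart.

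Lines and tissues differed over much of the transcriptome. Of 18194 genes, 4831 (26.6%) were higher in the lines and 4202 (23.1%) were lower, and the median difference of all genes was 0.06. Counts of called members of the gene lists below are to be read against these shares. A difference of at least 2-fold was called for 1305 genes higher (7.17%) and 1457 lower (8.01%). All 8 lines lay above all 8 tissues for 2112 genes (11.6%) and below them for 2055 (11.3%). Differences of 16-fold or more were fewer upward than downward, with 34 called genes against 142.

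Among called genes whose lines and tissues did not overlap, predicted and clone symbols left out, the 10 largest differences upward fell in genes of varied function. Clic5, an intracellular channel-family protein, read 5.76, 7.61 and 9.16 in the lines and 1.16, 1.38 and 1.60 in the tissues, a difference of 6.19 ± 0.29 and at least 6.00 (adjusted p = 8.41e-08). Fbn2, a microfibril protein, differed by 6.06 ± 0.17 (adjusted p = 2.71e-09). The transcription factors Sall3 and Sox3 followed at 5.28 and 5.10, and Tnc, the matrix protein tenascin C, at 4.99. Pcdh11x (4.88), Adam12 (4.86), Chst7 (4.85), Igfbp3 (4.76) and Fzd9 (4.70) completed the 10 highest. All 10 had every line above every tissue, as the choice required. With probe sets averaged, Clic5, Sox3 and Sall3 differed by 4.84, 3.49 and 4.67.

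Among the 10 largest differences downward, chosen in the same way, were 4 immune genes and 6 genes of neurons or of unassigned class. Lyz1 and Lyz2, which encode lysozymes, differed by -8.79 and -7.31, but they are near-identical copies whose signals may be shared. Ctss, a lysosomal protease of microglia, was lower by at least 7.39 (difference -7.69), and C1qb, a complement subunit, differed by -7.09. Neurod1 and Nhlh2, transcription factors of newborn neurons, differed by -8.38 and -7.83, the second by at least 7.35. Stmn2, a growth cone protein, differed by -7.74 and Slc17a6, a vesicular glutamate transporter, by -7.22. Ppp2r2c and St18 differed by -7.67 and -7.37. The lines did not overlap the tissues for any of these 10 genes, and so all 8 pairs ran downward, as the choice required. Averaged over their probe sets, Ppp2r2c, St18, Lyz1, Slc17a6 and C1qb differed by -3.19, -5.49, -5.83, -6.17 and -6.08.

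**Figure D1:**
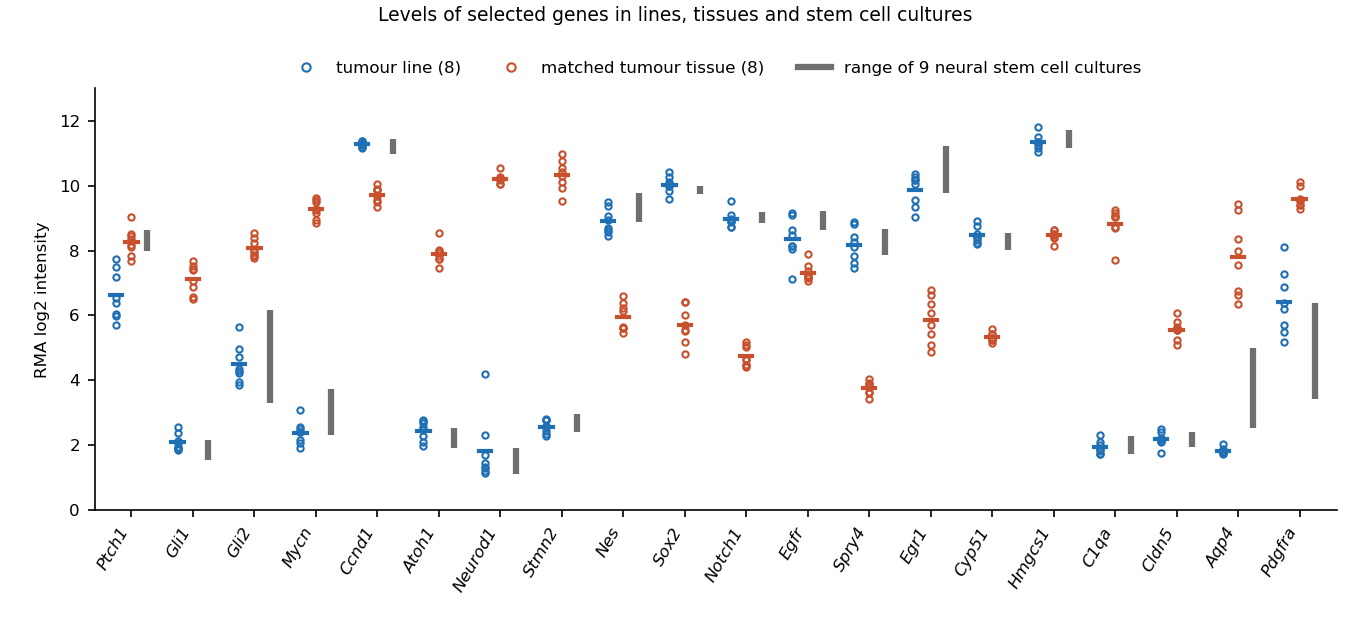
RMA log2 intensity (y axis) of 20 genes (x axis) in the 8 lines and the 8 matched tissues, 1 open point per array and a short bar at each group's mean, with a grey bar over the range of the 9 NSC cultures. Gli1, Mycn, Atoh1, Neurod1, Stmn2, C1qa, Cldn5 and Aqp4 sit far lower in the lines, and Nes, Sox2, Notch1, Spry4, Egr1, Cyp51 and Hmgcs1 sit higher.

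Hedgehog pathway genes went in both directions, and Gli1, Gli2, Mycn and Sfrp1 were far lower in the lines. Of 21 measured pathway members, 9 were higher in the lines and 9 lower, with a median difference of 0.03, against 26.6% and 23.1% of all genes. Gli1, the transcriptional activator that is itself a target of the pathway, read 1.86, 2.00 and 2.56 in the lines and 6.50, 7.23 and 7.69 in the tissues. All lines lay below all tissues, by 5.04 ± 0.21 or 32.9-fold (adjusted p = 2.95e-08). The NSC cultures read 1.56 to 2.16, overlapping the lines. Gli2, the main activator upstream of Gli1, read 3.87, 4.33 and 5.66 against 7.76, 7.97 and 8.54, a difference of -3.56 ± 0.21 (adjusted p = 4.18e-07). Gli3, which acts mostly as the repressor of the pathway, ran the other way at 1.44 ± 0.41 (adjusted p = 0.0147), with lines from 2.78 to 6.47 and tissues from 2.55 to 4.74. Those ranges overlapped, and without tumours 77 and 83 the Gli3 call was lost (1.27, adjusted p = 0.079).

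Ptch1 itself read 5.72, 6.46 and 7.75 in the lines and 7.67, 8.27 and 9.02 in the tissues. Each line lay below its own tissue, by 0.50 to 3.30, although line 92 at 7.75 stood above the lowest tissue. The mean difference was -1.63 ± 0.29 (adjusted p = 0.000982). The files do not place this probe set on the transcript, so it does not separate the intact from the mutated copy. Of its 3 probe sets 2 were called lower, and all 3 lay between -1.63 and -0.07. The NSC cultures, whose sample names carry WT, read 7.99 to 8.62, above every line, a difference that was not tested here.

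Among the other receptors and transducers, Boc, a Hedgehog co-receptor, was 3.87 to 4.27 in the lines and 6.30 to 6.97 in the tissues, a difference of -2.60 (adjusted p = 1.44e-08). Its relatives Cdon and Gas1 were higher in the lines, by 1.12 and 0.40. Smo, the signal transducer that Ptch1 restrains, was higher by 0.52 ± 0.15, with overlapping ranges (6.53 to 7.82 and 6.38 to 7.02). The Smo and Gas1 calls were lost without tumours 77 and 83 (adjusted p = 0.0574 and 0.0737), and that of Gas1 also without the tumour block (0.0525). Sufu, which holds Gli proteins in the cytoplasm, was lower by 1.44 through its brightest probe set, while another of its 3 probe sets was called higher, up to 0.19, and their mean differed by -0.46. Kif7, a ciliary motor that regulates Gli proteins, and Disp1, which releases the ligand, were higher by 1.12 and 1.02. The ligand gene Shh read 2.96 to 3.21 in the lines and 2.57 to 3.26 in the tissues and was not called (0.10, adjusted p = 0.39). It passed after quantile normalization (0.26, adjusted p = 0.0268), and 1 of its 2 probe sets was called higher (0.24). Hhip, a decoy receptor and target, was not called either (-1.05 ± 0.43, adjusted p = 0.0686), but it passed without tumour 83 (-1.35, adjusted p = 0.019) and without tumour 49 (-1.24, adjusted p = 0.0491).

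Target genes went in both directions. Mycn read 1.93, 2.40 and 3.08 in the lines and 8.86, 9.26 and 9.62 in the tissues, 6.88 ± 0.17 lower or 118-fold (adjusted p = 8.91e-10). That holds for its brightest probe set: 1 of its 3 probe sets read 0.12 and was not called, and their mean differed by -3.67. Sfrp1, a secreted Wnt antagonist and Hedgehog target, read 2.04, 2.98 and 5.36 against 9.75, 10.60 and 11.04, a difference of -7.03 ± 0.40. For both genes the groups were far apart, and the mean over the probe sets of Sfrp1 differed by -5.89. Ccnd1, cyclin D1, ran against them at 11.16, 11.30 and 11.38 in the lines and 9.33, 9.77 and 10.04 in the tissues, 1.57 ± 0.08 higher (adjusted p = 2.04e-07). Ccnd2, cyclin D2, was equal in mean (0.03, SE 0.08, adjusted p = 0.767). Foxm1 and Bcl2 were higher in the lines by 0.96 and 0.66. Igf2, a growth factor these tumours are known to need, was lower by 2.80 ± 0.35 (-1.48 with probe sets averaged). Spop, a ubiquitin ligase adaptor for Gli proteins, was lower by 1.55, where line 49 read 2.33 and the other lines 5.32 to 7.98, and its call was lost without tumour 74 (adjusted p = 0.0625) or 91 (0.0575).

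Granule neuron genes were mostly far lower in the lines. Of 21 markers of granule progenitors, 16 were lower and 2 higher, with a median of -2.62, and 12 had every line below every tissue (all genes 11.3%). Of 14 markers of maturing granule neurons, 12 were lower and none was called higher, with a median of -2.87. Atoh1, the factor that specifies granule progenitors, read 1.98, 2.51 and 2.77 in the lines and 7.45, 7.87 and 8.53 in the tissues. Lines were below tissues without overlap, by 5.45 ± 0.14 or 43.8-fold (adjusted p = 1.56e-09). Neurod1, which drives granule neuron differentiation, read 1.15, 1.40 and 4.19 against 10.04, 10.19 and 10.55. The highest line was 49, with the other lines at up to 2.32, and no line came near a tissue.

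Further progenitor genes moved the same way. Insm1, a zinc finger factor of dividing neuronal precursors, was lower by 6.84, Nhlh1 by at least 5.72 and Barhl2 by at least 3.97. Pax6, which marks the rhombic lip and granule lineage, kept a clear level in the lines, 5.62 to 6.30 against 8.49 to 9.16 in the tissues (-2.87, and -1.85 with probe sets averaged). The 2 members called higher were Sox4, a factor shared by many progenitors (0.31), and Eya1 (0.98). Both were small and overlapped, and the Eya1 call was lost without any 1 of tumours 91, 9, 49, 68 or 77 (adjusted p 0.0557 to 0.0762), while that of Sox4 was lost without tumours 77 and 83 (0.0573) and after quantile normalization (0.18, adjusted p = 0.0989).

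Genes of later granule neurons were also lower. Cbln1, a synapse organiser, read 2.66, 3.07 and 3.40 in the lines and 8.48, 8.93 and 9.88 in the tissues (-6.01 ± 0.15, adjusted p = 1.25e-09). Reln, the migration signal secreted by granule cells, differed by -7.08, Cntn2, an adhesion protein of young granule axons, by -4.80 and Rbfox3, the NeuN antigen, by -2.58. Neurod6 lay at 0.82 to 1.07 in the lines and was lower by at least 5.39. Gabra6, a receptor subunit of mature granule neurons, was lower by at least 3.07 on average, but its tissues ranged from 1.51 to 8.28. With probe sets averaged, Cbln1, Reln, Cntn2, Rbfox3 and Gabra6 differed by -5.28, -4.13, -3.5, -4.74 and -2.49.

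Most pan-neuronal genes were lower in the lines, with exceptions. Of 28 pan-neuronal genes 19 were lower and 1 higher, with a median of -1.47, and all 8 lines lay below all 8 tissues for 14. Ina, Kif5c and Celf4, which encode an intermediate filament, an axonal motor and an RNA-binding protein, differed by -6.79, -6.75 and -5.69. Stmn2 read 2.29, 2.59 and 2.80 in the lines against 9.52, 10.37 and 10.98, a gap of 7.74 ± 0.13. Dcx, a microtubule protein of migrating neurons, spread widely over the lines, from 2.31 to 7.73, yet stayed below every tissue (9.93 to 11.05). Map2, a dendritic microtubule protein, was alike in mean (0.06 ± 0.08, adjusted p = 0.58). The 1 gene called higher, Thy1, a surface glycoprotein of many cell types, read 6.82 to 8.84 in 7 lines and 3.54 in line 49, against 3.28 to 5.77 in the tissues (3.14 ± 0.57, adjusted p = 0.00103). Averaged over their probe sets, Kif5c, Ina, Celf4 and Dcx differed by -3.72, -5.89, -4.90 and -5.05.

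Genes of other cerebellar neurons were lower as well. Of 13 markers of Purkinje cells and interneurons 8 were lower in the lines and 1 higher (median -2.65). Lhx1, a factor of Purkinje cells and other hindbrain neurons, was lower by 6.25 (-4.79 with probe sets averaged), Pcp4 by 4.60, Foxp2 by 2.65 and Ebf2 by 2.08. Slc32a1, the inhibitory vesicular transporter, was called higher by 0.32, but its 4 probe sets disagreed (-0.54 to 0.32) and their mean was not called (0.04, adjusted p = 0.616). The summed linear intensity of this list lay between 116 and 245 in the lines and between 544 and 2600 in the tissues, ranges that did not overlap. The part of normal cerebellar neurons in the granule and neuronal results was not tested.

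Neural stem cell genes ran in the opposite direction. Of 23 such genes 16 were higher in the lines and 4 lower, with a median of 2.01, and 12 had no overlap (all genes 11.6%). Sox2, which maintains neural stem cells, read 9.60, 10.02 and 10.41 in the lines and 4.80, 5.63 and 6.42 in the tissues, 4.32 ± 0.16 higher (adjusted p = 1.51e-08). Nes, the intermediate filament nestin, read 8.45, 8.82 and 9.48 against 5.45, 5.88 and 6.59, a difference of 2.95 ± 0.10 (adjusted p = 1.13e-08) that was 1.96 with probe sets averaged. Olig2, a factor of glial progenitors, was higher by 3.85 and Tnc by 4.99. The line levels lay close to those of the NSC cultures, which read 9.73 to 9.98 for Sox2 and 8.89 to 9.77 for Nes, though lines and NSC were not tested against each other here.

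The 4 members called lower included Hopx, a cofactor of quiescent stem cells (-2.26), and Msi1, an RNA-binding protein of progenitors (-1.29, and -0.70 with probe sets averaged). Id3, an inhibitor of differentiation factors, was higher by 2.01. Egfr, the receptor for the EGF in the medium, was only modestly different at 7.12, 8.32 and 9.15 in the lines and 7.07, 7.20 and 7.89 in the tissues. It was higher in 7 of 8 lines, and line 83 at 7.12 was the exception (1.03 ± 0.21, adjusted p = 0.00188). Egfr in the lines of tumours 27 and B, with a Ptch het p53 het genotype, read 4.15 and 1.88, below every line and tissue compared here, and this difference was not tested here.

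Of 22 Notch pathway genes 12 were higher and 5 lower (median 0.62). The receptor Notch1 read 8.71, 8.94 and 9.54 in the lines and 4.40, 4.65 and 5.18 in the tissues, 4.23 ± 0.11 or 18.8-fold higher (adjusted p = 1.56e-09). Notch3 (2.50), the ligands Dll1 (2.76) and Dll3 (2.62) and the target Hes5 (2.74, 5.0 to 8.09 against 3.26 to 5.03) were higher too. Hey1, another target, ran against them, at 3.73, 5.04 and 7.12 in the lines and 8.22, 8.58 and 9.09 in the tissues (-3.42 ± 0.28). Numbl, a Numb-family regulator of Notch, was lower by 1.43.

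**Figure D2:**
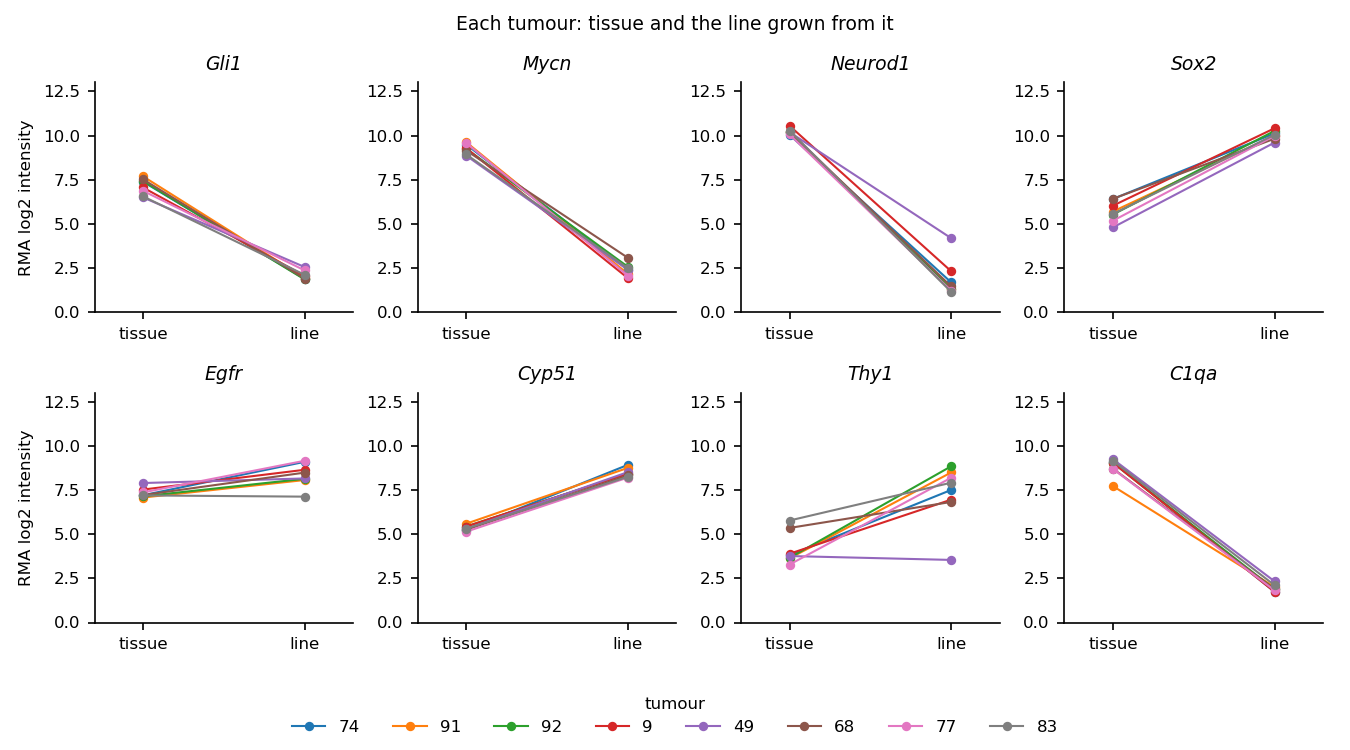
RMA log2 intensity (y axes, 0 to 13) of 8 genes in each tumour's tissue and line, with a line joining the 2 arrays of a tumour. Gli1, Mycn, Neurod1 and C1qa fell and Sox2 and Cyp51 rose in all 8 tumours, whereas Egfr was not higher in line 83 and Thy1 not in line 49.

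Oligodendrocyte lineage genes went in both directions. Of 17 oligodendrocyte lineage genes 3 were higher and 8 lower (median -0.30). The transcription factors Olig1 (3.2) and Nkx2-2 (4.40, from 3.04 to 4.82 in the tissues to 8.22 to 8.83 in the lines) were higher. Pdgfra, the growth factor receptor of oligodendrocyte precursors, read 5.17, 6.29 and 8.12 in the lines and 9.28, 9.53 and 10.10 in the tissues (-3.2 ± 0.34, adjusted p = 2.45e-05). Gpr17 and Sox10, which mark committed precursors, were lower by 3.17 and 1.44, and line 68 read highest of the lines in both (5.31 and 5.48). The myelin genes Mbp and Cldn11 were lower by 2.17 and at least 1.82. With probe sets averaged, Mbp and Sox10 differed by -3.96 and -0.77.

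Of 17 astrocyte genes 8 were lower, 2 higher and 7 not called (median -1.01). Their summed linear intensity overlapped, at 4410 to 10300 in the lines and 4320 to 10600 in the tissues. Aqp4, the water channel of astrocyte endfeet, read 1.74, 1.80 and 2.03 in the lines and 6.35, 7.78 and 9.42 in the tissues (-5.97 ± 0.34, adjusted p = 3.1e-07). Gfap, the astrocyte filament, differed by -3.64, Clu by -2.80, Aldh1l1 by -2.06 and Glul, glutamine synthetase, by -1.76. Aldoc, an aldolase of astrocytes and Purkinje cells, was higher in the lines by 2.68, as was the pump subunit Atp1b2 by 1.05. Averaged over their probe sets, Aqp4 and Aldh1l1 differed by -4.87 and -0.99. The NSC cultures differed from both groups in Aldh1l1, at 8.73 to 10.34 against at most 3.97 in the lines and 6.43 in the tissues, a difference that was not tested here.

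Genes that respond to EGF and FGF signalling were mostly higher in the lines. The medium contained both factors, and the lines' response genes cannot be told apart from the rest of the culture condition. Of 19 such genes 14 were higher and 1 lower, with a median of 2.19, and 12 did not overlap. Spry4, a feedback inhibitor of receptor tyrosine kinase signalling, read 7.47, 8.18 and 8.89 in the lines and 3.43, 3.83 and 4.05 in the tissues, 4.40 ± 0.17 or 21.1-fold higher (adjusted p = 2.21e-08). Its relatives Spry1 (2.69) and Spry2 (2.65), the ERK phosphatase Dusp6 (2.65) and the transcription factors Etv4 (3.5) and Etv5 (2.93) were each higher in all 8 lines. Also higher were Phlda1 (3.44), the FGF antagonist Il17rd (2.85), the EGF-family ligand Hbegf (2.20), Ier3 (2.19), Spred3 (2.03) and Spred1 (1.39). Spred2 was higher by 0.40, with 1 of its 5 probe sets called the other way (down to -0.26). Dusp5, a nuclear ERK phosphatase, was the member called lower, at 4.93 to 6.72 against 6.43 to 7.82 (-1.07). With probe sets averaged, Spry4, Spry2 and Il17rd differed by 3.78, 1.53 and 1.65.

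Immediate early genes were mixed. Of 16, 8 were higher and 1 lower (median 0.42). Egr1, a zinc finger factor induced within minutes of growth factor exposure, read 9.02, 10.10 and 10.35 in the lines and 4.87, 5.90 and 6.79 in the tissues, 3.99 ± 0.27 higher (adjusted p = 1.2e-06). Fos, Nr4a1 and Jun were higher by 2.52, 1.76 and 1.68, whereas Jund was lower by 0.55. The labels do not say how long each sample stood between removal and lysis.

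Cell cycle genes differed by small amounts. Of 24 mitotic genes 15 were higher and none was called lower, yet the median was 0.31 and only 1 reached 2-fold (all genes 7.17%). That gene was Plk1, a mitotic kinase, at 7.31, 7.85 and 8.03 in the lines and 6.17, 6.69 and 7.26 in the tissues (1.02 ± 0.12, adjusted p = 6.58e-05). Prc1 (0.74), Aurkb (0.63) and Nuf2 (0.59) followed, and Mki67, the Ki-67 antigen, was not called (0.15 ± 0.08, adjusted p = 0.17). Without tumour 77, without tumour 83 or with arrays centred on brighter genes, 11 mitotic genes were higher. Without tumour 83, 1 was also called lower. Of 25 DNA replication genes 9 were higher and 3 lower, against 26.6% and 23.1% of all genes. The count of higher genes dropped to 5 without tumour 9, 49 or 83. Rrm2, a ribonucleotide reductase subunit, and Gins2 were higher by 0.93 and 0.89 and Mcm4 by 0.44, while the helicase subunit Mcm7 was lower by 0.58 and Prim1 by 0.34. Rrm1 was higher by 0.34, and was not called with its probe sets averaged (0.17, adjusted p = 0.128).

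Promoters of the mitotic genes were read for a pair of motifs known from cell cycle promoters. RefSeq promoter windows (build GRCm38.p6), from 250 bases before to 50 after each start, matched 21 of these genes with 22 windows. The motif TTTGAA, known as the cell cycle genes homology region, was present on either strand in 17 of the 22 windows (77.3%) against 17.9% of all 32851 windows, and CCAAT in 18 (81.8%) against 37.4%. Plk1, at chr7:122159185-122159484 on the plus strand, held both, shown in capitals, with CCAAT starting 14 bases before and TTTGAA 30 bases after the start. A match describes letters and not binding.
Plk1: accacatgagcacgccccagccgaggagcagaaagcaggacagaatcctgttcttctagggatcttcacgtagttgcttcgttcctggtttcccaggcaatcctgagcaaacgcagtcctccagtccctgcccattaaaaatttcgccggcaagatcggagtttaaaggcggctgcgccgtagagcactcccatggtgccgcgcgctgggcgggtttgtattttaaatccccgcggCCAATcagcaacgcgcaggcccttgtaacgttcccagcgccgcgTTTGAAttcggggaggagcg

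The Gli motif GACCACCCA, searched in the same way on both strands, was in none of the 18 windows of 14 Hedgehog pathway genes and in 0.253% of all windows. No window was matched for Gli1, Sfrp1, Ccnd1, Ccnd2 or Foxm1. For a motif this rare, no match in 18 windows is likely for any list. No match says only that these letters are not in this window.

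Of 18 cyclin D, CDK inhibitor, Rb and Myc family genes 6 were higher and 5 lower, shares near the 26.6% and 23.1% of all genes. Cdk6, a G1 kinase, read 3.12, 3.63 and 6.35 in the lines and 9.53, 10.03 and 10.40 in the tissues, 5.80 ± 0.34 lower or 55.9-fold (adjusted p = 3.77e-07), and by 4.89 with probe sets averaged. Myc was higher by 1.67 ± 0.14, opposite to Mycn. The inhibitors Cdkn1a and Cdkn2c were higher by 1.99 and 0.90. Cdkn2a, the Ink4a and Arf locus, was called higher (1.68 ± 0.62, adjusted p = 0.0449), with 3.52 to 5.94 in 6 lines but 1.38 in line 92 and 1.62 in line 83. Its call was lost without any 1 of tumours 74, 91, 9, 49, 68 or 77 (adjusted p 0.0727 to 0.108), and without tumour 92 it differed by 2.28.

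Among 29 p53 target genes 13 were higher and 8 lower (median 0.29), against 26.6% and 23.1% of all genes. For 11 of them every line lay above every tissue (all genes 11.6%). Plk2, a polo-like kinase, read 8.36, 8.72 and 9.36 in the lines and 4.35, 4.56 and 5.27 in the tissues (4.05 ± 0.16, adjusted p = 1.99e-08), a difference that was 2.12 with probe sets averaged. Phlda3 (2.46), Sesn2 (1.75) and Zmat3 (1.60) were higher with Cdkn1a. Plk3 (-1.35) and Sesn1 (-1.25) were lower. Plk2 and Cdkn1a also respond to other stimuli, growth factors among them.

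Cholesterol synthesis genes were higher with 1 exception. Of 19 measured genes 18 were higher, each at least 2-fold and each with all 8 lines above all 8 tissues, and the median difference was 2.53 against 0.06 for all genes. Hmgcs1, the synthase that feeds the mevalonate pathway, read 11.02, 11.33 and 11.80 in the lines and 8.13, 8.50 and 8.63 in the tissues, 2.88 ± 0.08 or 7.35-fold higher (adjusted p = 3.02e-09). Cyp51, which demethylates lanosterol, read 8.20, 8.42 and 8.92 against 5.14, 5.31 and 5.59, a difference of 3.13 ± 0.09 or 8.78-fold (adjusted p = 1.91e-09). The later enzymes Sqle (2.72) and Nsdhl (2.74) were similar. Ebp, a sterol isomerase, was the exception at 6.12 to 7.24 against 6.70 to 6.98 (-0.03 ± 0.12, adjusted p = 0.852). The summed linear intensity of the list was 8630 to 13700 in the lines, 1660 to 1900 in the tissues and 9050 to 11700 in the NSC cultures. Lines and NSC thus shared a range that no tissue entered.

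The promoters of these genes were also read, after their differences were seen. RefSeq windows matched 16 of the genes with 19 windows. CCAAT, on either strand, was in 16 of the 19 windows (84.2%), at least 1 for each of the 16 genes and thus also for Ebp, against 37.4% of all windows. The sterol regulatory motif TCACNCCAC was in 1 of 19 (5.26%), that of Hmgcs1, against 1.24% of all windows. Shown are Hmgcs1 at chr13:119690101-119690400 on the plus strand and Cyp51 at chr5:4104648-4104947 on the minus strand (GRCm38.p6), with CCAAT or its reverse complement ATTGG and the sterol motif in capitals. Hmgcs1 held 4 CCAAT matches and 1 sterol motif, and Cyp51 held 1 CCAAT.
Hmgcs1: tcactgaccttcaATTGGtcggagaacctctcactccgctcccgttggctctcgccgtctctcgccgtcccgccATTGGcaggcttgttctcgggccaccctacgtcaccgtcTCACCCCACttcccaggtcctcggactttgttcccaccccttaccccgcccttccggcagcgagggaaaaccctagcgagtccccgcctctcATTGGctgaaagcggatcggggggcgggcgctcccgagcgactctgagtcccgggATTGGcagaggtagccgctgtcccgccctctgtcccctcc
Cyp51: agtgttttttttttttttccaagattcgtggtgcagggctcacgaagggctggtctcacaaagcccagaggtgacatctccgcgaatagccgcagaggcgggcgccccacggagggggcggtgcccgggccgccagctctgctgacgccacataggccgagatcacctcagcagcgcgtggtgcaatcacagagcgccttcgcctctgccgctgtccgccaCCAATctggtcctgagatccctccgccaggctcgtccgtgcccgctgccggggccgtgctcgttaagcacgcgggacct

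Genes of energy metabolism were mostly higher in the lines. Of 21 hypoxia and glycolysis genes 14 were higher and 2 lower (median 1.25). The glycolytic enzymes Tpi1 (2.08), Pgk1 (1.84) and Pgam1 (1.29) and the vasoactive peptide gene Adm (3.75) were higher in every line than in any tissue. Hk2, hexokinase 2, ran against them at 4.47, 5.69 and 8.77 in the lines and 7.87, 8.31 and 9.53 in the tissues (-2.64 ± 0.39, adjusted p = 0.000262). Ndrg1 was lower by 0.90, a call lost without tumour 9 (adjusted p = 0.0553) or 68 (0.054). Of 22 respiratory chain genes 15 were higher and none was called lower, all by less than 2-fold (median 0.41): the complex III subunits Uqcrc1 (0.97) and Uqcrb (0.73) and the ATP synthase subunit Atp5b (0.72) were the clearest. Sdha was higher by 0.54, though 1 of its 4 probe sets was called lower (-0.53).

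Of 20 genes of amino acid supply and stress 11 were higher and 2 lower (median 0.50). Psph (1.57) and Phgdh (1.1), enzymes of serine synthesis, and the tRNA synthetase Aars (0.88) were higher, and Cebpg, a stress factor, was lower by 0.97. Ribosomal protein genes went down slightly: 12 of 15 were lower and none was called higher (median -0.26), as for Rps3 (-0.48), Rps15 (-0.44) and Rps9 (-0.41). Rps24 was lower by 0.52, with 1 of its 6 probe sets called higher by 0.26. Centring the arrays on their medians, which moved the median of all genes to 0.12, left 8 of these 15 called lower.

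Microglia, macrophage and vascular genes were lower in the lines, whereas lymphocyte genes were not. Of 20 microglia and macrophage genes 19 were lower in the lines, 18 of them without overlap, with a median of -3.95. C1qa, a complement subunit made by microglia, read 1.74, 1.88 and 2.33 in the lines and 7.72, 9.04 and 9.24 in the tissues, 6.89 ± 0.16 lower or 119-fold (adjusted p = 7.21e-10). Tyrobp, a myeloid adaptor, differed by -5.73. In the lines 6 of the 20 (Aif1, P2ry12, Itgam, Ctss, Ptprc and Mrc1) had a mean at or below the guide of 1.57, and in the tissues none had. The summed linear intensity of the list was 89.3 to 118 in the lines, 96.4 to 114 in the NSC cultures and 1840 to 5310 in the tissues. Laptm5 was called higher by 0.32 through its brightest probe set, but 4 of its 5 were called lower and their mean differed by -1.29. The mean for Ptprc differed by -1.85. Of 12 lymphocyte genes 3 were higher, 1 lower and 8 not called (median 0.05).

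Endothelial genes behaved alike at smaller size. Of 15, 13 were lower and none was called higher (median -0.77). Cldn5, a tight junction protein of brain endothelium, read 1.78, 2.17 and 2.49 in the lines and 5.08, 5.57 and 6.07 in the tissues (-3.38 ± 0.13, adjusted p = 2.28e-08). Slco1a4 (-2.32) and Esam (-1.60) were lower, and Tek by at least 0.95. Tek, Tie1, Emcn and Vwf had line means at or below the guide, and the list sum was 93.1 to 110 in the lines and 193 to 262 in the tissues. Of 16 genes of mural cells and fibroblasts 13 were lower and 1 higher (median -0.84, sums of 105 to 124 and 386 to 773). Rgs5, a pericyte gene, differed by -5.62, Dcn by -4.25, Vtn by -4.06, and Col3a1 by at least 3.53. Igfbp7 was called higher by 0.26, while 2 of its 3 probe sets were called lower and their mean differed by -1.58. The means for Rgs5, Dcn, Vtn and Col3a1 differed by -3.11, -2.07, -3.04 and -2.28. The part of these cell types in the other genes lower in the lines was not tested.

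Genes of antigen presentation were divided. Of 15, 6 were lower and 2 higher (median -0.45), against 23.1% and 26.6% of all genes. The class II genes Cd74 (-2.67), H2-Eb1 (-1.67) and H2-Aa (-1.5) were lower, with Cd74 at 2.57 to 2.98 in the lines and 4.15 to 7.14 in the tissues. The class I gene H2-D1 was lower by 2.79 ± 0.40 and ranged in the lines from 2.81 in line 49 to 7.34 in line 77, with a difference of -0.91 over its averaged probe sets. The peptide transporters Tap1 and Tap2 were higher by 1.03 (0.36 with probe sets averaged) and 0.84. Class II genes are expressed mainly by myeloid cells, whose list sum is given above, and their part in these differences was not tested.

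Growth factor and imprinted genes went in both directions. Of 18, 6 were higher and 9 lower (median -0.84), against 26.6% and 23.1% of all genes. Igf2 read 3.41, 3.61 and 4.93 in the lines and 5.41, 6.62 and 8.20 in the tissues, and Igf1 differed by -2.07. The binding proteins Igfbp3 (4.76; 9.83 to 10.64 against 4.30 to 5.90) and Igfbp2 (3.96 ± 0.13) were higher, again at the levels of the NSC cultures. The imprinted genes Peg3 (-2.87) and Meg3 (-2.37) were lower, Peg3 with a spread over the lines from 4.95 to 8.21. Averaged over probe sets, Peg3 and Meg3 differed by -1.64 and -1.51.

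**Figure D3:**
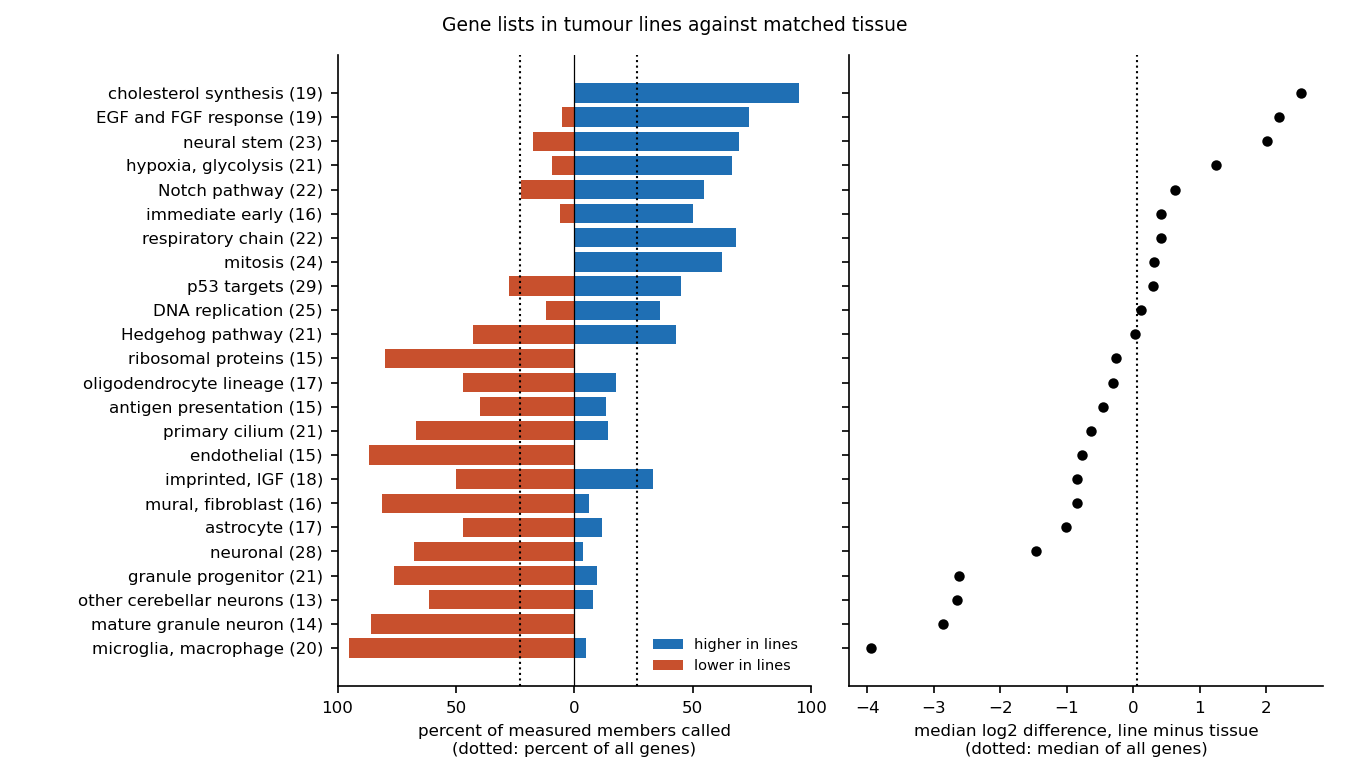
For 24 gene lists (number of measured genes in brackets), the percent of members called higher (right) or lower (left) in lines than in tissues, and the median log2 difference on the right panel. Dotted lines mark 26.6% and 23.1% of all genes and the median of all genes, 0.06. Cholesterol synthesis has the highest median and the microglia list the lowest.

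Not every gene behaved alike in the 8 tumours. Across all genes, the median SD was 0.20 among lines and 0.18 among tissues, and it was larger among lines for 60.2% of genes. Some genes varied mainly in the tissue. Gabra6 read 8.28 in tissue 83, 7.47 in 68, 6.15 in 91 and 5.84 in 9, then 3.65 in 92 and 2.61 in 74, and 1.58 and 1.51 in 77 and 49. Calb1, a Purkinje cell gene, had the same order at the top (8.29, 7.66, 6.13 and 5.64 in 83, 68, 91 and 9) and read 1.35 and 1.44 in 49 and 77. Cbln3 and Car8, of granule and Purkinje cells, were also highest in tissues 83 and 68 (8.37 and 7.56, and 8.04 and 7.24). All lines read 2.24 or less for these 4 genes. Tissues 83 and 68 carried the same date-like mark in their names, as did 77 and 49, and so did 91, 9, 92 and 74. For this order of tissues, tumour and mark cannot be told apart. Ttr, abundant in choroid plexus, was 12 in tissue 92 and 10.24 in tissue 49, and 3.19 to 4.05 in the other tissues. Line minus tissue was -3.26 for Calb1, -3.16 for Cbln3 and -3.52 for Car8, or -1.26, -2.02 and -1.7 with probe sets averaged. Ttr was not called (-1.92, adjusted p = 0.162), with -2.63 over averaged probe sets, -0.95 without tumour 92 and -1.27 without tumour 49.

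Interferon-stimulated genes were high in 1 line and 1 other tissue. Usp18 read 7.73 in line 77 and 1.47 to 2.01 in the other lines, and 5.52 in tissue 83 against 1.5 to 2.06 in the other tissues. Oasl2 (7.30 and 4.40), Rsad2 (8.54 and 5.01) and Ddx58 (6.93 and 3.88) were likewise highest in line 77 and in tissue 83. Neither tissue 77 nor line 83 was high in Usp18 (1.97 and 1.56). Of 17 interferon genes 4 were called higher and 1 lower, against 26.6% and 23.1% of all genes, and without tumour 77 the counts were 3 and 5. The pairing of tumours 77 and 83 is uncertain, as described with the correlations of line and tissue.

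Line 92 stood apart in hypoxia genes. There Hk2 was 8.77 (other lines 4.47 to 6.23), Bnip3, a mitophagy receptor, 9.45 (5.02 to 7.30), Vegfa 8.98 (5.83 to 6.84) and Egln3 7.50 (3.77 to 6.76). Tissue 92 was not the highest for any of these 4 genes. Bnip3 was not called over the 8 pairs (-0.54, adjusted p = 0.352) but was lower without tumour 92 (-1.04, adjusted p = 0.00225). Line 49 departed in other genes, with the lowest Thy1, Spop and H2-D1 of all lines and the highest Neurod1, Dcx and Reln (4.19, 7.73 and 6.72). Otx2, a forebrain and midbrain factor also found in some medulloblastomas, was 4.2 in line 77 and at most 1.86 in the others, against 3.34 to 7.44 in the tissues (-4.48). Bmp5 was 5.21 and 4.64 in lines 91 and 92 and at most 1.58 in the other lines, and 1.97 to 8.07 in the tissues (-2.80, and -2.2 without tumour 9).

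**Figure D4:**
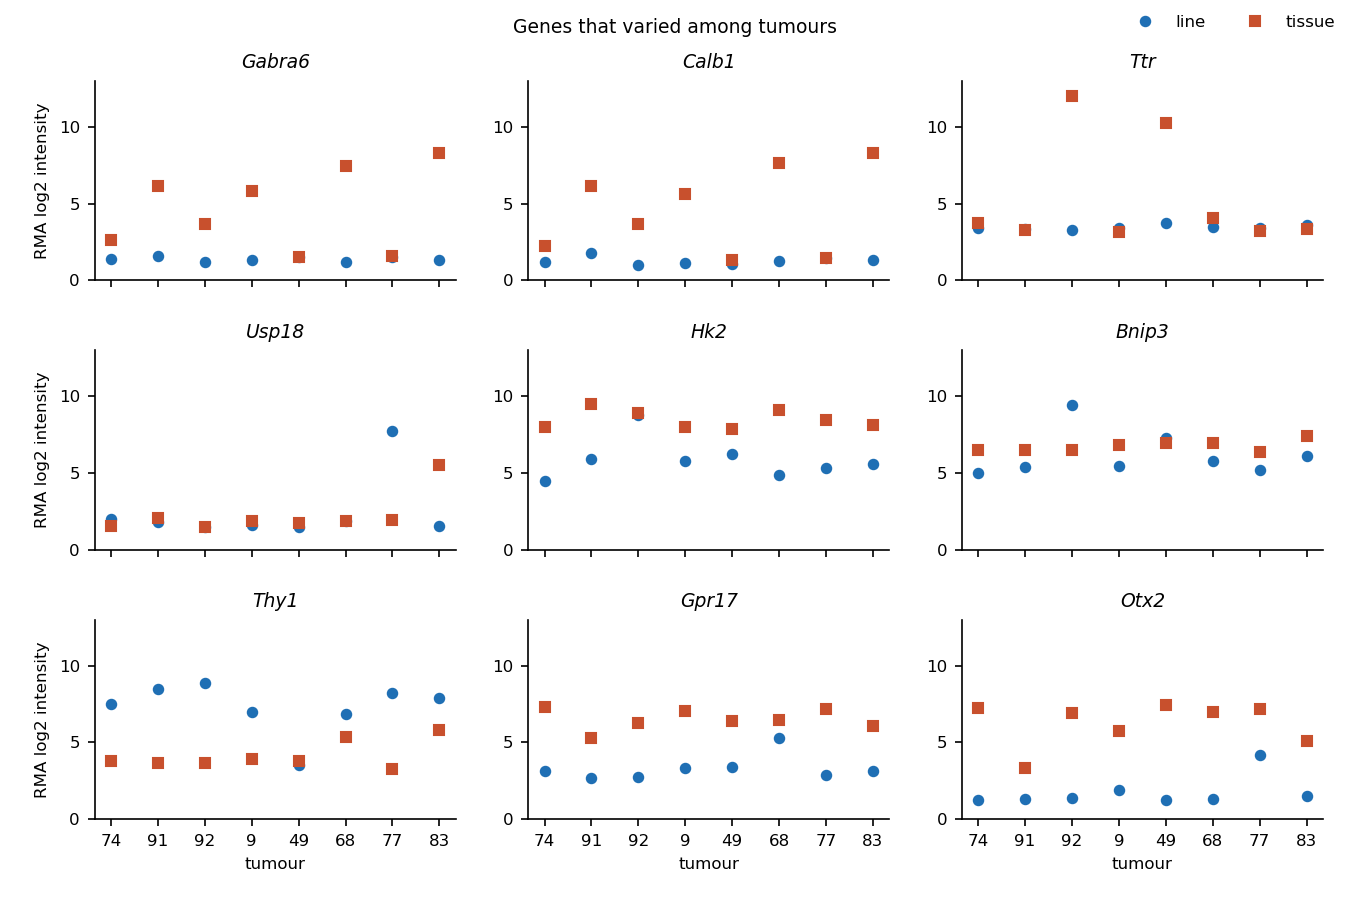
RMA log2 intensity (y axes, 0 to 13) of 9 genes by tumour (x axis), with circles for lines and squares for tissues. Gabra6 and Calb1 vary together among tissues, Ttr is high in tissues 92 and 49, Usp18 in line 77 and tissue 83, and Hk2 and Bnip3 are highest among lines in line 92. The tissue order of Gabra6 follows the date-like mark of the sample names.

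Whether a line kept the profile of its own tumour was described by correlating, over the 18194 genes, each line's deviation from the mean of the lines with each tissue's deviation from the mean of the tissues. These points share arrays and genes, so the values are a description. The correlation with its own tissue was 0.22 for line 91, 0.20 for 92, 0.16 for 9, 0.15 for 49 and 0.13 for 68, and for these 5 it was higher than with any other tissue. It was 0.06 for line 74, where tissue 9 gave 0.11. Tissue 74 in turn correlated best with line 83, so the correlations did not single out this labelled pair either. For lines 77 and 83 the correlation with the own tissue was -0.01, while line 77 gave 0.18 with tissue 83 and line 83 gave 0.10 with tissue 77. For every line the best other tissue came from the same set, either 74, 91, 92 and 9 or 49, 68, 77 and 83. The date-like marks differ between these sets, and their part in the correlations was not tested. The pairing of tumours 77 and 83 by their labels is uncertain, and the paired values of both depend on it. Whether their labels are crossed was not tested. The Y-linked gene Eif2s3y read 5.64 to 6.94 in both arrays of tumours 92 and 68 and at most 1.21 elsewhere, tumours 77 and 83 included. Xist, the RNA of the inactive X, differed most in tumour 91, with 3.28 in the line and 5.70 in the tissue. Without tumours 77 and 83, 4192 genes were higher and 3825 lower.

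Expression medians by chromosome were taken over 9032 genes above 4 in both groups, as 160 medians of deviations from the group mean, a description made after a pattern was seen. A median of at least 0.2 occurred in 9 lines' chromosomes and 3 tissues' chromosomes, and the 3 tissue cases were all shared with their own line. Chromosome 17 in tumour 91 was at 0.45 in the line and 0.38 in the tissue. Chromosome 6 was at 0.31 and 0.22 in tumour 91 and at 0.34 and 0.24 in tumour 92. Others passed 0.2 in the line but not the tissue: chromosome 6 in tumour 9 (0.30 and -0.15), chromosome 11 in 74 (0.35 and 0.01) and 77 (0.31 and 0.01), chromosomes 1 and 15 in 49 (both 0.38, with -0.03 and 0.02) and chromosome 8 in 83 (0.36 and -0.02). For the uncertain pairs, tissue 83 read -0.03 on chromosome 11 and tissue 77 read 0.0 on chromosome 8. Below -0.2 lay 4 line and 2 tissue medians: chromosome 6 in tumour 49 in both (-0.27 and -0.21), in lines 68 (-0.21, tissue 0.14) and 83 (-0.22, tissue -0.01) and in tissue 74 (-0.29, line -0.18), and chromosome 11 in line 49 (-0.21, tissue 0.01). Each deviation is taken from the mean of its group, so arrays raised on a chromosome push the others down there. Chromosomes 6 and 11, where the low medians lay, also held raised lines. Expression was measured and not DNA copy number.

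**Figure D5:**
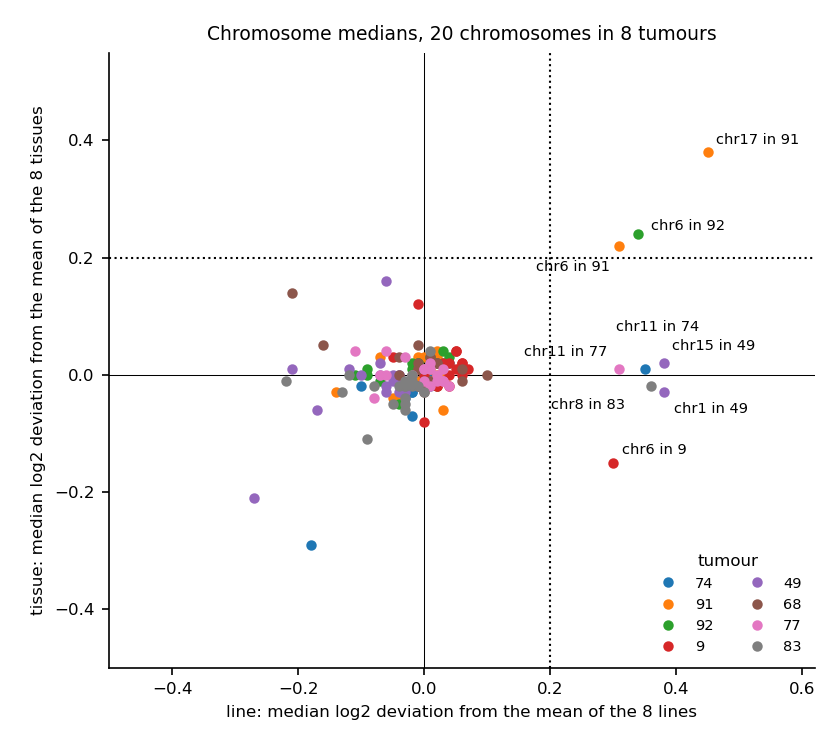
Median log2 deviation of each of 20 chromosomes in each of 8 tumours, line on the x axis against matched tissue on the y axis, coloured by tumour, with dotted lines at 0.2. The 3 points at upper right are raised in both arrays of a tumour, and the labelled points near a tissue value of 0 are raised only in the line.

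Sample names end in a mark that reads as a date, and it is the same for line and tissue in tumours 74, 91, 92 and 9 but not in 49, 68, 77 and 83. The labels do not say what the mark stands for. In the 4 pairs with a shared mark 3845 genes were higher and 3462 lower, and in the 4 pairs with different marks 2943 and 2992. Of 4915 genes called in both sets, 4906 ran the same way. The test of the difference between the sets called no gene (0.0% of 18194), with 1918 (10.5%) at an unadjusted p under 0.05 and a smallest adjusted p of 0.115. In simulated data this test recovered 3.0% of true differences of 0.5 on the log2 scale, 49.3% of those of 1 and 80.3% of those of 2, so small differences between the sets were not detectable. For 8 named genes a set's own value was more than 1.5-fold from that of all pairs, as for Thy1 (4.2 and 2.08) and Dcx (-7.15 and -5.27). Gli1 differed by -5.45 in the shared set and -4.62 in the other.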

How the data were processed

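Values were the deposited RMA log2 intensities of the series matrix, made by the authors with RMA on Affymetrix arrays from total RNA (RNeasy) and biotin-labelled cRNA, per the labels' protocols and the submitters' processing notes; the RMA version is not given in the sources used here. Of 45101 probe sets, 34958 had 1 gene symbol, 932 several and 9211 none listed. For the 9012 of 18194 genes with several probe sets, the one brightest on average across the 31 arrays was used.

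Lines and tissues were compared with limma 3.58.1 (R 4.3.3), paired by tumour, with Benjamini-Hochberg adjustment and a threshold of 0.05. Python 3.11.15, numpy 2.4.6, pandas 2.3.3 and matplotlib 3.10.9 made the tables and figures. The tumour identifiers in the labels give the pairing. The labels do not say that tumours came from separate animals, so p-values measure the spread between these samples. The number of arrays limits the precision.

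Members and gene lists were chosen with earlier results of these data known, and the guide of 1.57 after the data were seen. Named genes were Ptch1, Gli1, Atoh1, Egfr and Nes, the 10 highest and 10 lowest called differences without overlap, up to 4 called members of a list in its main and 2 in the other direction, all called members of the Hedgehog and EGF and FGF lists, and the 6 genes most variable between pairs. Predicted and clone symbols were left out of the highest, lowest and most variable genes. Of 228 named genes 199 follow this rule and 29 were chosen after their values were seen: Hhip, Ccnd2, Shh, Pax6, Cbln3, Reln, Dcx, Map2, Car8, Hes5, Mbp, Aldh1l1, Mki67, Cdkn2a, Ebp, Vegfa, Bnip3, Egln3, Oasl2, Rsad2, Aif1, P2ry12, Itgam, Ptprc, Mrc1, Tie1, Emcn, Vwf and Higd1b. Higd1b, which is not described above, differed by -0.69. On simulated data with 200 of 18194 genes changed, the paired fit recovered 49.3% at a log2 difference of 0.5, 82.1% at 1 and 97.0% at 2. The data had 9033 called genes, for which the adjusted threshold is less strict, so these rates do not give the sensitivity of the reported comparison.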

Additional observations from a re-analysis of the deposited data

Results flagged for a closer look

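Of 456 groups of 8 arrays, 45 held 1 array whose gap to its nearest neighbour was large for the group's range by Dixon's criterion, where chance gives about 1 in 20, or 22.8. The counts cannot be read against that number, since some of these genes were named for their variation between tumours or after their values were seen. Line 49 had 11 of them, lines 92 and 77 had 7 each and line 68 and tissue 91 had 4 each. Ranges in brackets are those of the other 7 arrays of the group, and causes were not tested. In line 49, the log2 levels were Neurod1 4.19 (1.15 to 2.32), C1qb 2.12 (1.33 to 1.68), Spop 2.33 (5.32 to 7.98) and Disp1 5.54 (3.95 to 4.60). Also in line 49, the log2 levels were Thy1 3.54 (6.82 to 8.84), Notch1 9.54 (8.71 to 9.10), Olig2 9.37 (10 to 10.26) and Dll1 7.14 (5.48 to 6.26). Also in line 49, the log2 levels were Notch3 7.63 (5.32 to 6.29), Glul 8.76 (7.51 to 8.06) and Gpr161 6.87 (5.56 to 5.91). In tissue 91, the log2 levels were C1qb 7.63 (8.46 to 9.08), C1qa 7.72 (8.69 to 9.24), Cebpg 8.54 (7.54 to 7.92) and Rps15 11.34 (11.40 to 11.44). In line 83, the log2 level was Kif7 5.50 (5.73 to 5.90). In tissue 68, the log2 levels were Bcl2 5.49 (4.62 to 4.98) and Irx3 4.52 (2.90 to 3.5). In line 92, the log2 levels were Neurod6 0.82 (0.96 to 1.07), Pgk1 11.89 (10.80 to 11.24), Tpi1 11.73 (10.02 to 10.79) and Pgam1 10.35 (9.15 to 9.34). Also in line 92, the log2 levels were Hk2 8.77 (4.47 to 6.23), Ndrg1 5.13 (3.06 to 3.87) and Vegfa 8.98 (5.83 to 6.84). In line 68, the log2 levels were Ina 4.03 (2.05 to 2.82), Gpr17 5.31 (2.70 to 3.41), Sox10 5.48 (3.73 to 4.44) and Cldn11 2.13 (1.35 to 1.61). In tissue 49, the log2 level was H2-Aa 5.53 (2.93 to 4.10). In line 77, the log2 levels were Tap1 5.13 (3.43 to 4.23), Otx2 4.2 (1.21 to 1.86), S100a6 2.39 (1.73 to 2.03) and Usp18 7.73 (1.47 to 2.01). Also in line 77, the log2 levels were Oasl2 7.30 (1.31 to 1.90), Rsad2 8.54 (3.59 to 4.21) and Ddx58 6.93 (3.57 to 4.73). In line 74, the log2 level was Dusp6 9.02 (9.53 to 9.97). In tissue 77, the log2 level was Jund 7.95 (8.67 to 9.18). In tissue 9, the log2 levels were Mcm7 10.50 (10.77 to 10.99) and Tie1 1.41 (1.81 to 2.11). In tissue 92, the log2 level was Cdkn2a 3.88 (1.69 to 2.20). In tissue 83, the log2 levels were Usp18 5.52 (1.5 to 2.06), Oasl2 4.40 (1.52 to 1.92) and Ddx58 3.88 (2.96 to 3.36).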

How the results depend on the processing

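Without the tumour block, so with no pairing, 4853 genes were higher and 4131 lower, against 4831 and 4202 with it. Leaving out each tumour in turn gave 4328 to 4636 higher and 3949 to 4046 lower. Requiring a fold beyond 2 in the test gave 672 and 823, testing every probe set gave 9007 and 7867 probe sets, and pairs with different date marks gave 2943 higher. The difference between date sets called 1 gene with probe sets averaged. Higher genes made up 53.5% of calls, 60% with array medians centred, 56.5% after quantile normalization and 46.7% with arrays centred on brighter genes. Averaging probe sets moved 56 of the 228 named genes by more than 1.5-fold, as given beside them, and Vegfa from 2.45 to 1.8. With probe sets averaged, Laptm5 (-1.29) and Igfbp7 (-1.58) reversed. Of 217 called genes named, 140 kept their call in every alternative run, and 205 in every one other than the 2-fold test and the date sets. Lost without tumours 77 and 83, a setting chosen after seeing the data, were also the calls of Slc32a1 (adjusted p = 0.0613), Ndrg1 (0.0786) and Cdkn2a (0.0609). The not-expressed guide of 1.57 limits how far low genes can be compared.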

Other observations

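Primary cilium genes were mostly lower in the lines. Of 21, 14 were lower and 3 higher, with a median of -0.64 against 0.06 for all genes. The cilium is the structure through which Hedgehog signals pass. Bbs4, of the BBSome, differed by -1.78, and the intraflagellar transport genes Ift81, Ift46 and Ift88 by -1.5, -0.89 and -0.80, all without overlap. Tulp3 and Gpr161, which restrain the pathway at the cilium, were higher by 1.52 and 0.83. Of 26 Wnt genes 7 were higher and 5 lower, shares near the 26.6% and 23.1% of all genes. The ligand Wnt5a (2.40) and the feedback gene Axin2 (1.55) were higher, and the antagonists Apcdd1 (-3.83) and Sfrp2 (-2.71) lower. Of 23 BMP and Id genes 8 were higher and 5 lower, also near the shares of all genes, and without tumours 77 and 83 the lower count was 3. Bmpr1b (2.51), Bmp7 (1.76) and Smad5 (1.16) were among the higher genes and the antagonist Chrd (-1.03) among the lower. With probe sets averaged, Tulp3, Wnt5a, Apcdd1 and Bmpr1b differed by 0.73, 1.48, -2.5 and 1.31.

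Of 25 adhesion and mesenchymal genes 11 were higher and 4 lower, and of 22 neural matrix genes 7 were higher and 6 lower, the second near the shares of all genes. The proteoglycans Bcan (2.91) and Ncan (2.45), the galectin Lgals1 (2.91), the integrin Itgb1 (1.41) and the cadherin Cdh4 (1.67) were higher. Col9a3 (-2.15), Spock2 (-2.33) and S100a6 (-4.56) were lower, and Lgals3, abundant in macrophages, by at least 5.05; the part of macrophages in it was not tested. Averaged over their probe sets, Itgb1 and Spock2 differed by 0.79 and -1.43. Of 18 hindbrain patterning genes 8 were higher and 2 lower, with Irx3 (2.07), Irx2 (1.5) and Irx5 (1.36) higher and Gbx2 higher by at least 1.00. Of 17 forebrain genes 4 were called higher and 1 lower, against 26.6% and 23.1% of all genes, and without tumour 92 only 2 higher.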
